A study of Solanum lycopersicum with 96 samples.

Results

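The regions described here are those in which cytosine sites stood closest together in seed DNA of the tomato cultivar Moneyberg. They were chosen in the list of regions of the Moneyberg control group. The score of each region, read here as its number of cytosine sites, was divided by its length, and the regions were chosen by this density, as the top 2% of the list. This gave 657 dense regions of the 32856 regions in that list. The 8 lists of the study together hold 237372 regions. Score and length chose the regions, so lengths, scores and densities in the control list are a description and carry no test. That the score counts cytosine sites rests on the values themselves, since no definition is given in the sources used here.

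The study examined seed of tomato mother plants treated with elicitors, chemicals that ready the defences of a plant, by whole-genome bisulfite sequencing. Bisulfite converts unmethylated cytosines, which lets methylated positions be read from the sequence. For Moneyberg there were control plants and plants given BABA (the amino acid beta-aminobutyric acid) or Ina in time window 2, or BABA or MeJA (methyl jasmonate) in time window 3, so 4 treatments. Bolstar, the other cultivar, had controls and 2 treatments, which were BABA and Ina of time window 2. The labels do not date the time windows or say how control plants were handled. Each group comprised 12 libraries, made as 2 libraries from each of 6 replicates, and each extraction pooled 10 seeds. Whole seed joins the embryo and endosperm of the offspring with a coat of the mother plant, and the lists cannot separate these tissues. The authors deposited 1 pooled list for each group. There is therefore no replicate error, no test between groups could be made, and each difference below is a difference between these lists. The names of the regions begin with HYPO, and whether that stands for low or for high methylation, the sources used here do not say.

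Plants methylate cytosines in the contexts CG, CHG and CHH, where H is any base but G. CG methylation is copied onto the new strand at each replication, and it can pass through meiosis to the seed. In tomato, the wide heterochromatin around the centromeres is rich in transposons and heavily methylated, and the gene-rich euchromatin lies towards the chromosome ends. Methylated cytosines mutate easily to thymine, so sequence with closely spaced CG sites is uncommon in plant heterochromatin. The context behind the sites counted here is not stated.

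The densest dense region had 105 sites per kb and the least dense had 44.0, with a median of 57.0. The median over all 32856 regions was 16.1 sites per kb. Most regions of the list, 23116, had between 10 and 20 sites per kb, and the numbers thinned from 6808 between 20 and 30 to 392 between 40 and 50. They did not thin steadily above that. There were 53 regions between 70 and 80, 62 between 80 and 90, 38 between 90 and 100, and 7 above. The last region inside it was chr2:13208780-13214420 with 248 sites, at 43.964 sites per kb. The next inside were chr8:58656682-58658499 with 80 sites and chr9:41641110-41643017 with 84 sites. Just outside lay chr10:59111322-59113255 with 85 sites at 43.950 per kb, chr10:38937081-38940061 with 131 sites and chr5:1219420-1246503 with 1190 sites. Densities on either side of the limit were alike, so it does not mark off a separate class.

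**Figure D1:**
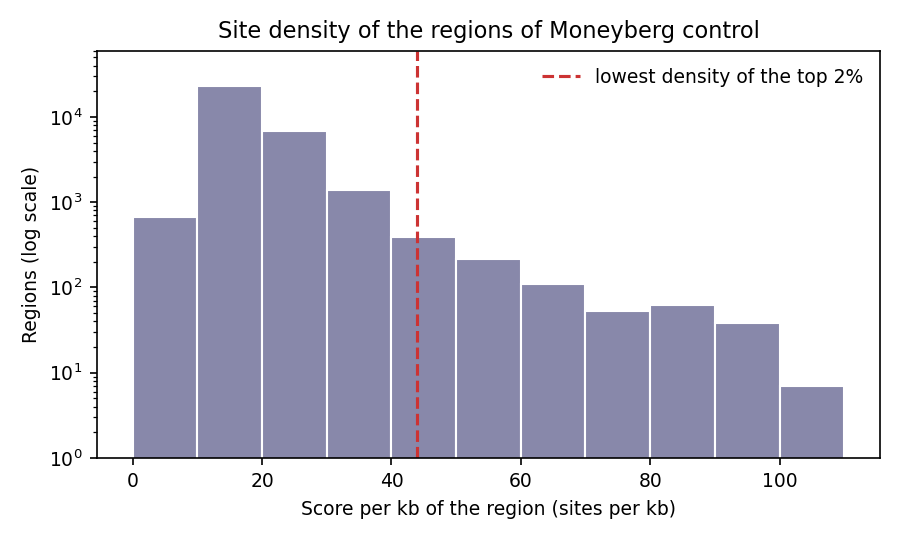
Number of regions of the Moneyberg control list (log scale) by site density in classes of 10 sites per kb; the dashed line marks the lowest density of the top 2%, 44.0 sites per kb. The counts drop to 53 between 70 and 80 sites per kb and stand at 62 between 80 and 90.

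Dense regions were mostly short. Their median length was 2361 bases (quartiles 1566 and 4242), against 9632.5 bases over all regions. Of the dense regions 39.9% were under 2 kb, against 1.16% of all regions. Their scores were not low: the median was 137 sites (quartiles 95 and 241), against 154 sites over all regions. A small set was very large. The dense regions ranged from 699 to 157973 bases and from 65 to 9211 sites, 24 were at least 20 kb long and 7 at least 50 kb. All 6 regions of the list with at least 4000 sites were dense regions, as were 7 of the 10 with the most sites, but only 2 of the 10 longest. Together the dense regions covered 3.47 Mb, which is 0.769% of the listed bases and holds 2.54% of the listed sites.

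They were unevenly spread over the 12 chromosomes. Chromosome 6 held 116 dense regions, 17.7% of them, while it held 5.69% of all regions of the list. Chromosome 11 held 95, or 14.5% against 8.01%. These chromosomes also held the denser members, with median densities of 74.7 and 68.2 sites per kb, and chromosome 8 had a median of 71.0. On chromosome 6 the dense regions carried 33.4% of all sites in dense regions. Chromosomes 5 and 10 stood at the other end, with 17 and 20 dense regions, 2.59% and 3.04% of them, against 9.48% and 9.07% of all regions. Chromosome 12 held 69 dense regions, 10.5% against 9.82%, but among the top 1% by density its share was 5.49%, below its share of all regions. The other chromosomes held between 31 and 64 each.

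**Figure D2:**
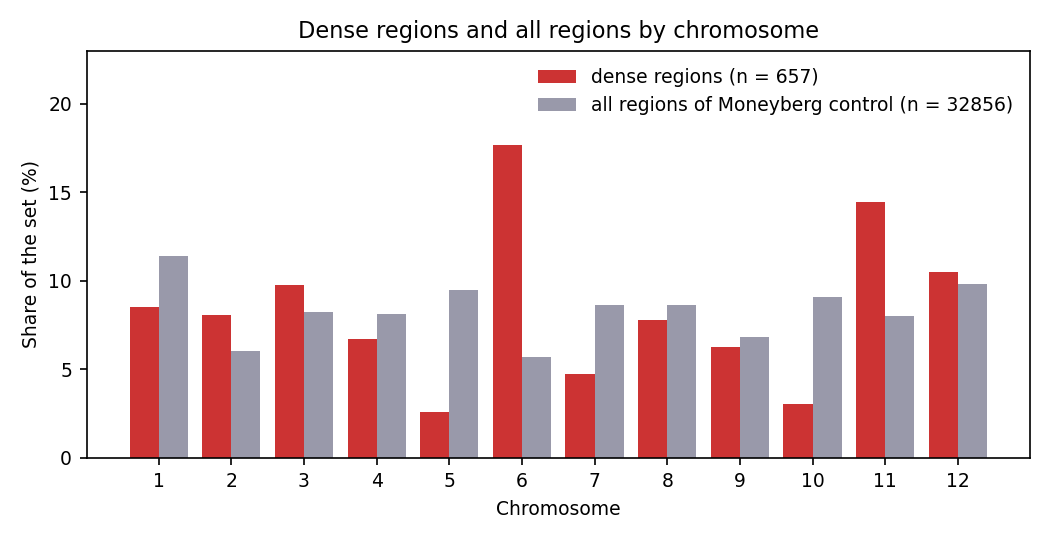
Share of the 657 dense regions (red) and of all 32856 regions of the Moneyberg control list (grey) on each of the 12 chromosomes, in percent of each set. Chromosomes 6 and 11 hold 17.7% and 14.5% of the dense regions, against 5.69% and 8.01% of all regions, and chromosomes 5 and 10 hold the smallest shares.

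Along the chromosomes, 81.0% of the dense regions lay in the interior, defined as everything but the first and the last 5 Mb of listed sequence, against 90.5% of all regions. The first 5 Mb held 14.0% of them against 5.96%, and the last 5 Mb 5.02% against 3.53%. Of the 92 in the first 5 Mb, 20 lay on chromosome 4, 16 on chromosome 1, 13 on chromosome 9 and 10 on chromosome 3. Most bins of 1 Mb held none: 214 of the 796 bins with a listed region held a dense region, and 134 of these held a single dense region. By contrast, 14 bins with 10 or more held 315, which is 47.9% of the dense regions. In the fullest, at 11 to 12 Mb of chromosome 6, 62 of the 81 listed regions were dense. At 18 to 19 Mb of chromosome 11 this was 54 of 66, and at 12 to 13 Mb of chromosome 6 it was 23 of 29.

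Dense regions were neighbours of dense regions. Of the 657, 452 stood next to another in the order of the list, or 68.8%, while 2.99% of all regions stood next to a dense region. Linking those with gaps of at most 100 kb gave 69 clusters of 2 or more, which held 471 dense regions (71.7%). The other 186 stood alone. Clustered regions were denser, with a median of 60.5 sites per kb against 50.1 for those alone. At the top of the scale this was near complete: 105 of the 107 regions with at least 80 sites per kb were clustered, and 102 of the 107 lay on chromosomes 6 (55), 11 (28) and 8 (19). The 14 clusters of 10 or more held 297 dense regions, 45.2% of them, and the 5 largest clusters held 163.

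The cluster with the most members was chr11:17891373-18101771, where all 43 listed regions were dense. Its regions were between 831 and 7300 bases long, had a median of 142 sites and 82.2 sites per kb, and covered 48.6% of a span of 210 kb. The second, chr6:11000319-11342281, held 38 dense regions among 42 listed ones with 13679 sites, at a median of 84.2 sites per kb. In chr11:18704170-18869640, 31 of 34 listed regions were dense and listed sequence filled 89.1% of the span. The cluster chr12:22628495-22838446, with 27 of 30 regions, was less dense, at a median of 54.4 sites per kb. Clusters chr6:11588079-11687168 and chr6:12287671-13092639 had 24 dense regions each, and differed in size. The former held 3176 sites in 47.0 kb of dense regions, the latter 37518 sites in 662.9 kb.

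Several of these clusters bordered wide stretches in which none of the 8 lists had a region. There were 29 such stretches of at least 500 kb. Of the dense regions 27.1%, or 178, lay within 100 kb of a stretch, against 1.44% of all regions. Read the other way, 37.6% of the 474 listed regions within 100 kb of a stretch were dense. The association was with few of the stretches: 9 of the 29 had a dense region within 100 kb, and 16 of the 58 regions directly flanking a stretch were dense. At 7 stretches the flanking region on both sides was dense. These were chr1:37103785-39003795, chr3:13380025-18082864, chr4:56164742-57764750, chr6:8599873-10999911, chr6:11687536-12287670, chr8:9462820-9965025 and chr11:18101772-18701793. The stretch on chromosome 11 separates the first and the third of the clusters above, and 41 of the 42 regions within 100 kb of it were dense. Around chr6:11687536-12287670 this was 38 of 42, and around chr6:8599873-10999911 it was 20 of 23. What lies in these stretches was not tested.

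**Figure D3:**
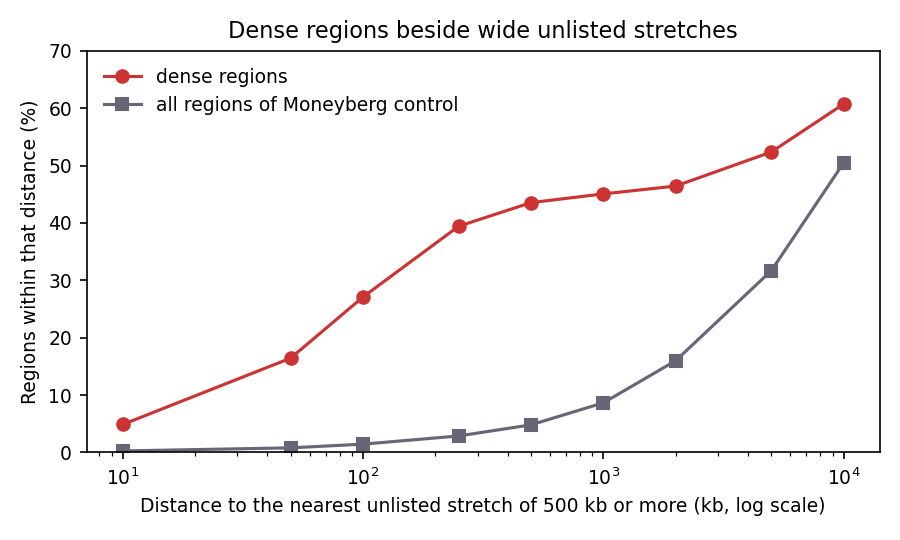
Share of the dense regions (red circles) and of all regions of the Moneyberg control list (grey squares) that lie within a given distance (kb, log scale) of a stretch of at least 500 kb without a region in any of the 8 lists. At 100 kb the shares are 27.1% and 1.44%, at 500 kb 43.5% and 4.81%, and at 10000 kb they come closer, at 60.7% and 50.5%.

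The 10 densest regions lay on chromosomes 1, 2, 6, 7, 8 and 11, and all but 3 had at most 106 sites. The densest, chr11:17950657-17951662, had 106 sites in the control list at 105.4 sites per kb. The region overlapping it had 138 sites with Moneyberg BABA in time window 2 and with Ina, 163 with BABA in time window 3, 137 with MeJA, 192 in Bolstar control and 193 with Bolstar BABA. Bolstar Ina listed nothing there. The 6 overlapping regions were longer but nearly as dense, at 103.7 to 104.5 sites per kb. The second, chr7:63260016-63260714, had 73 sites in each of the 5 Moneyberg lists and with Bolstar Ina. It had no base in Bolstar control or Bolstar BABA, whose smallest listed regions have 78 and 85 sites. The third, chr8:9965026-9967470, had 251 sites in 6 of the 8 lists, 250 with Moneyberg Ina and 233 with Moneyberg BABA in time window 2. It begins at the end of the unlisted stretch of chromosome 8. The region chr7:13496904-13500314 held 332 sites in the control list, and its counterpart was larger elsewhere. It had 439 sites in Moneyberg BABA of time window 2 and in Bolstar Ina, 1069 in Moneyberg Ina and MeJA, and 1361 in the remaining 3 lists. There it was joined to less dense sequence, and its density was 28.1 sites per kb in those 3 lists.

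Nearly all dense regions were found again in the other Moneyberg lists. A region was counted as found when it shared 1 base or more with any region listed there. With BABA in time window 2, 630 were found, 95.9% (95% Wilson interval 94.1 to 97.2), and 27 were not, where 4.61% of all regions of the control list had no base. With Ina in time window 2, 28 were not found, and the share over all regions was 4.39%. With BABA in time window 3, 28 were not found, beside 4.49% over all regions. With MeJA in time window 3, 33 were not found, beside 5.81%. The dense regions' own shares of absence were 4.11%, 4.26%, 4.26% and 5.02%, near the background in every Moneyberg list.

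In Bolstar more of them were missing than in Moneyberg, as were more of all regions. The control list had no base in 74 dense regions, 11.3% of them beside 10.1% of all regions. With BABA 108 were missing, 16.4% beside 12.8%, and with Ina 52, 7.91% beside 7.26%. Control and Ina thus lay near the background, and BABA lay above it. The intervals of the share found were 86.1 to 90.9%, 80.5 to 86.2% and 89.8 to 93.9%, and they reflect the number of regions counted, with no bearing on how plants vary. The lists differ in the smallest region they hold: 65 sites in Moneyberg control, 68 to 71 in the other Moneyberg lists, and 78, 85 and 71 in Bolstar control, BABA and Ina. Of the missing regions, 41 of 74, 72 of 108 and 15 of 52 had fewer sites than the smallest region of that Bolstar list. The order of the Bolstar lists, with BABA missing most and Ina least, is also the order of these minimums. Among regions of at least 85 sites, ranked anew, 96.5%, 93.5% and 95.5% of the densest were found in the 3 Bolstar lists, and 97.8 to 98.7% in the Moneyberg lists. Neither these shares nor the counts of missing regions below a minimum are set beside all regions here. Nothing particular to dense regions is read from them.

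Dense regions that were missing had few sites. Regions missing from at least 1 list, 144 in all, had a median of 82 sites and 1418.5 bases. The 513 found in all 7 other lists had medians of 173 sites and 2937 bases. Their median densities were 58.5 and 56.3 sites per kb. The 513 are 78.1% of the dense regions, beside 81.6% of all regions. Of the 112 dense regions with fewer than 85 sites, 35.7% were found with Bolstar BABA and 50.9% in Bolstar control, beside 44.1% and 54.3% of the other regions of that size. At or above 154 sites, the median of the list, all 297 dense regions were found with Moneyberg BABA in time window 2 and at least 98.0% in each of the other 6 lists. The shares of the other regions of that size are not given here, so nothing particular to dense regions is read from these.

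Absence from the Bolstar lists was more frequent on chromosome 6. Of the 116 dense regions there, 81.0%, 72.4% and 83.6% were found in Bolstar control, BABA and Ina, and 96.6 to 97.4% in the Moneyberg lists. Without chromosome 6, the Bolstar shares were 90.4%, 86.0% and 93.9% of 541 dense regions. Over all 1871 regions of chromosome 6, 82.8%, 78.3% and 87.7% were found in Bolstar. Elsewhere, chromosome 9 included, the shares were 90.3%, 87.7% and 93.0%. Absence from Bolstar was not particular to chromosome 6. Over all 2252 regions of chromosome 9 the shares found were lower still, at 74.4%, 68.3% and 78.4%. The 41 dense regions of chromosome 9 had shares of 80.5%, 75.6% and 80.5%. Leaving chromosome 9 out moved none of the shares found beyond its interval.

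**Figure D4:**
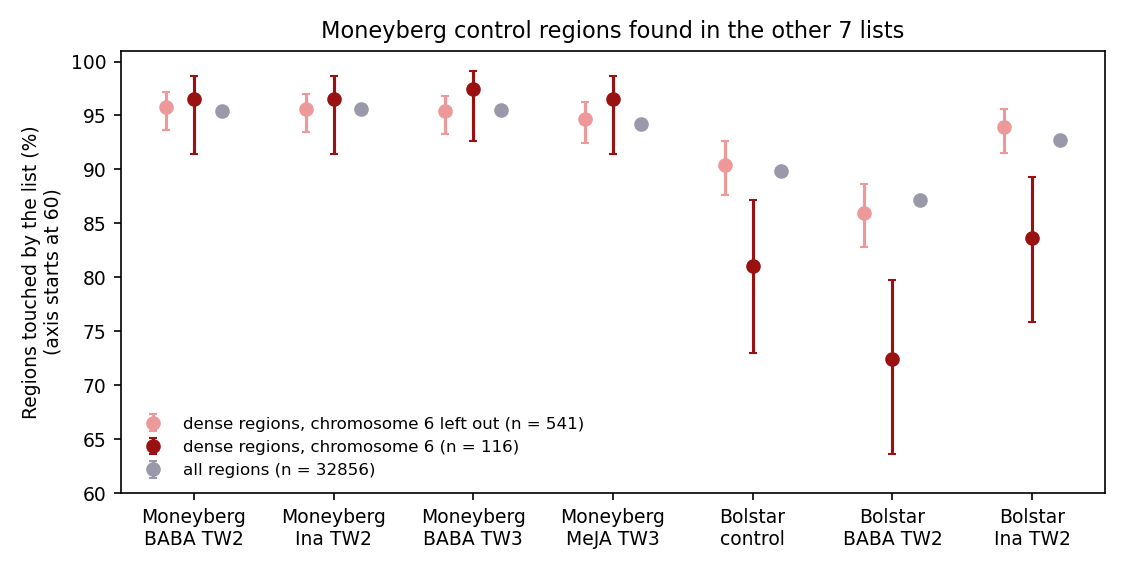
Share of regions of the Moneyberg control list with at least 1 base in each of the other 7 lists, for dense regions on chromosome 6 (dark red, n = 116), dense regions elsewhere (light red, n = 541) and all regions (grey, n = 32856); bars are 95% Wilson intervals for counting error over regions, and the axis starts at 60%. The dark red points stand at 96.6 to 97.4% in the Moneyberg lists and at 72.4 to 83.6% in the Bolstar lists.

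Few dense regions followed the cultivar cleanly. There were 12 with a base in all 4 Moneyberg treatment lists and in no Bolstar list, 1.83% of the dense regions beside 2.09% of all regions. They lay on chromosomes 6 (7 regions), 9 (3 regions) and 11 (2 regions). The largest by sites was chr9:5081654-5084660, with 165 sites, and chr9:5079994-5081396, with 84 sites, lies directly before it. On chromosome 6, chr6:8598433-8599872 had 135 sites at 93.8 per kb and chr6:8596408-8597214 had 74 sites. The former ends where a stretch without listed regions begins. Scores of most of the 12 barely moved between Moneyberg lists: in chr6:8598433-8599872, chr6:11670745-11671801 and chr6:11155414-11156417 they were 1.0 times the control in every Moneyberg list. The exceptions were chr11:18821191-18822555, at 5.77 times with MeJA, and chr6:30372334-30374042, at up to 1.44 times.

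Few dense regions were absent from a Moneyberg treatment list. Of the 657, 606 were found in all 4 Moneyberg treatment lists, 92.2% beside 91.2% of all regions. Those absent from a single treatment list and present in the other 3 numbered 2 for BABA in time window 2, 6 for Ina, 6 for BABA in time window 3 and 9 for MeJA. These are 0.304%, 0.913%, 0.913% and 1.37% of the dense regions, beside 0.548%, 0.682%, 0.703% and 1.70% of all regions. The largest of these had 99, 198, 153 and 152 sites. For 16 of the 657, no Moneyberg treatment list had a base, beside 2.02% of all regions. In 13 of them, 1.98% beside 1.27% of all regions, no other list of either cultivar had a base. These 13 had 65 to 88 sites. The largest, chr3:18437432-18438769, had 88 sites at 65.8 per kb. The densest of the 10 with the most sites was chr6:11033325-11034113, with 70 sites at 88.7 per kb, inside the second largest cluster. The smallest scores of the 8 lists are 65 to 85 sites, so these regions lie at or near the bottom of the range that is listed.

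Where a dense region was found, the region that shared most bases with it was usually among the densest of its own list. This held for 93.5% with Moneyberg BABA in time window 2, 94.4% with Ina, 94.3% with BABA in time window 3 and 93.3% with MeJA. The same share over all regions was 2.04%, 2.02%, 2.00% and 2.13%, which counts mostly the dense regions themselves, so nothing is read from the difference. In Bolstar control, BABA and Ina the shares were 81.3%, 82.7% and 81.3%, and over all regions 1.69%, 1.70% and 1.68%. From the other side, 84.8 to 90.4% of the top 2% of each Moneyberg treatment list, and 90.7%, 91.9% and 92.2% of the top 2% of the Bolstar lists, shared most bases with a member of the 657. Between 9 and 18 of the densest regions of each other list had no base in the Moneyberg control list. The share over all regions of those lists is not given here. The top 2% of the Bolstar lists hold 535, 483 and 601 regions, and those of the Moneyberg treatments 600 to 625.

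The median score ratio of the overlapping region to the dense region was 1.0 in each Moneyberg list and with Bolstar Ina, 1.01 in Bolstar control and 1.06 with Bolstar BABA. Behind these medians lie many identical intervals. Start and end were unchanged for 302 dense regions with Moneyberg BABA in time window 2, 294 with Ina, 298 with BABA in time window 3 and 269 with MeJA. In Bolstar they were unchanged for 166, 152 and 209. As shares of the dense regions these are 46.0%, 44.7%, 45.4% and 40.9% in Moneyberg and 25.3%, 23.1% and 31.8% in Bolstar. Over all regions the shares were 51.9%, 51.7%, 51.9% and 49.7% in Moneyberg and 18.9%, 17.2% and 21.8% in Bolstar, so the dense regions lay below the background in Moneyberg and above it in Bolstar. Of the unchanged dense intervals, 83.0 to 85.1% had exactly the same score in the Moneyberg lists, beside 93.5 to 94.1% of all unchanged intervals. In Bolstar this was 79.6 to 83.3% beside 84.0 to 85.4%. The largest difference among dense regions was 21 sites, in Bolstar control. An interval with the same ends in the control list and another list thus mostly held nearly the same score. If the score counts cytosine sites, this was largely fixed in advance, so nothing further is read from it.

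A score at least 1.5 times higher than in the control list was more frequent among dense regions than over all regions in each Moneyberg treatment list. The control score divides this ratio and also entered the choice of the dense regions. The choice itself can therefore shift these shares, and nothing particular to dense regions is read from their distance to the background. It was seen in 20.6% of the found dense regions with BABA in time window 2, beside 14.5% of all regions. With Ina it was 19.7% beside 14.2%, with BABA in time window 3 17.6% beside 14.5%, and with MeJA 25.6% beside 16.5%. In Bolstar the order was the opposite, with 29.8% beside 34.3% in the control, 36.4% beside 38.9% with BABA and 22.1% beside 27.7% with Ina. A score at least 1.5 times lower was seen in 2.54% beside 3.41% with Moneyberg BABA in time window 2, 3.34% beside 3.50% with Ina, 3.97% beside 3.48% with BABA in time window 3, and 1.76% beside 2.81% with MeJA. In Bolstar control, BABA and Ina it was 7.38%, 5.46% and 8.60%, beside 5.21%, 4.16% and 7.0%. On chromosome 6 these Bolstar shares were 35.1%, 31.0% and 33%. On the other chromosomes they were 2.04%, 0.860% and 3.94%, and the shares over all regions there were 4.52%, 3.49% and 6.22%. Over all regions of chromosome 6 the Bolstar shares were 17.6%, 16.7% and 20.7%. Lower scores in Bolstar were thus more frequent on chromosome 6 as a whole, and there the dense regions stood above all regions. Only the overlapping region with the most shared bases is scored. A lower score therefore does not separate a dense region split over several Bolstar regions from one with fewer sites.

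A dense region could also meet several regions of another list, called its pieces here. The share of dense regions that met 2 or more regions of another list was 5.02% with Moneyberg BABA in time window 2, beside 6.19% over all regions. It was 6.85% beside 6.47% with Ina, 6.09% beside 6.19% with BABA in time window 3, and 3.96% beside 5.45% with MeJA. In Bolstar control, BABA and Ina it was 8.22%, 7.31% and 10.5%, below the 11.6%, 9.61% and 14.4% over all regions. The mean over dense regions hides a split by chromosome: 24.1%, 22.4% and 24.1% of those on chromosome 6 met several Bolstar regions, and 4.81%, 4.07% and 7.58% of those elsewhere. Over all regions of chromosome 6 the shares were 19.6%, 16.7% and 22.9%, and elsewhere 11.1%, 9.19% and 13.9%. There were 20 dense regions that were a single region in every Moneyberg treatment list and several in every Bolstar list, 3.04% beside 2.89% of all regions. Of these 20, 15 lay on chromosome 6, as did 125 of the 949 such regions in the whole list.

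The largest dense regions showed this most. The largest, chr6:12674752-12832724, is 158.0 kb long and had 9211 sites in Moneyberg control. It met 1 region with BABA in time window 2, 3 with Ina, and 2 each with BABA in time window 3 and MeJA, with 9208 to 9216 sites in all. In Bolstar it met 17 regions in the control, 21 with BABA and 21 with Ina. They held 8146, 8554 and 8448 sites and covered 92.9%, 97.0% and 97.6% of its bases. The piece with the most shared bases had 1585, 1657 and 2091 sites. The lists of the cultivars thus covered nearly the same bases of this region, but in different numbers of pieces.

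Its neighbour chr6:12516037-12668185, with 8485 sites in Moneyberg control, was a single region in each Moneyberg list. It had the same 8485 sites with BABA in both time windows, and was part of a region of 10052 sites with Ina and of 10416 with MeJA. In Bolstar it was in 25, 22 and 28 pieces in control, BABA and Ina, and their score ratios were the lowest of any dense region in Bolstar control and BABA, at 0.09 and 0.11. The next, chr6:12912186-13000411 with 5099 sites, was 1 region in each Moneyberg list and 12 in each Bolstar list. The region chr6:4992728-5075660 lies far from these and had exactly 4597 sites in all 5 Moneyberg lists. It stood in 8, 6 and 6 pieces in Bolstar, which covered 99.5 to 99.6% of it. Regions chr6:13006567-13092639 (4525 sites) and chr6:12392731-12480405 (4465 sites) were also single in every Moneyberg list, with 4 to 17 pieces in the Bolstar lists. Bolstar control, BABA and Ina covered 90.3%, 92.1% and 81.8% of chr6:12516037-12668185 and 75.3%, 79.6% and 83.0% of chr6:12392731-12480405. Coverage was 94.4 to 97.4% for chr6:12912186-13000411 and 92.0 to 99.7% for chr6:13006567-13092639. Next in sites on chromosome 6 were chr6:11308409-11342281, covered at 66.2 to 82.2%, and chr6:8544984-8590377, at 52.0 to 64.2%.

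**Figure D5:**
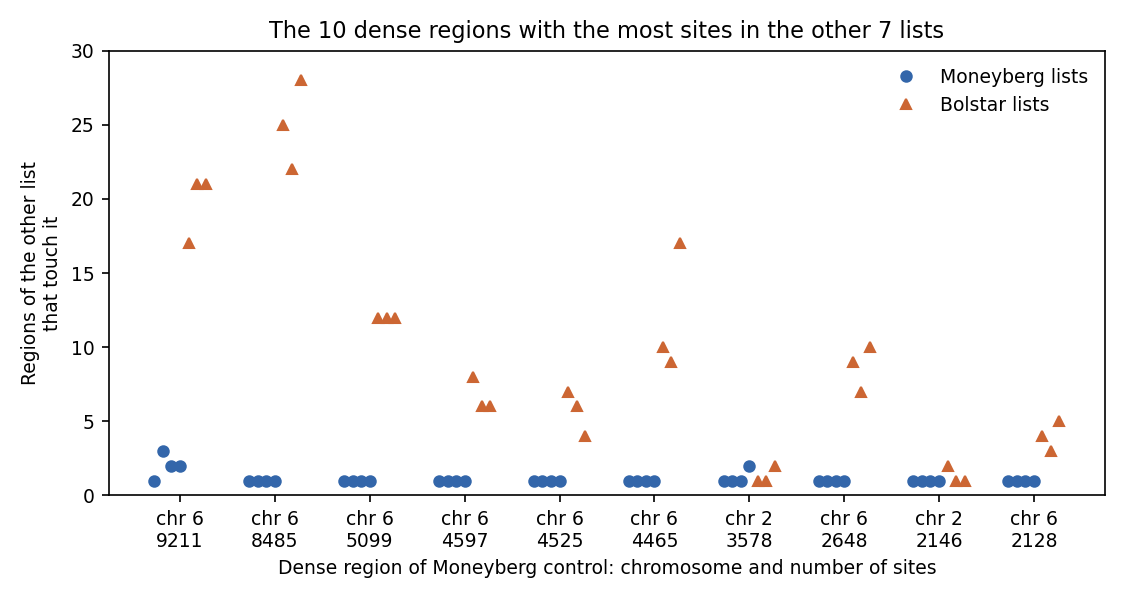
Number of regions of each other list that touch each of the 10 dense regions with the most sites, which are named by chromosome and number of sites; blue circles are the 4 Moneyberg treatment lists and orange triangles the 3 Bolstar lists, each in the order of the text. The 8 regions of chromosome 6 met 1 to 3 Moneyberg regions and 3 to 28 Bolstar regions, and both regions of chromosome 2 met 1 or 2 of either cultivar.

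Over the 12 dense regions of chromosome 6 with at least 1000 sites, the mean number of pieces was 1.08 to 1.25 in the Moneyberg treatment lists. It was 8.67, 7.92 and 9.58 in Bolstar control, BABA and Ina, with 104, 95 and 115 pieces in all. The pieces covered 87.8%, 89.6% and 90.2% of their bases. The 18 dense regions of that size on other chromosomes had means of 1.28 to 1.5 in Moneyberg and of 1.44, 1.44 and 1.83 in Bolstar. Other regions of chromosome 6 with at least 1000 sites, 27 in number and of similar length (median 63.8 kb against 64.2 kb), had Bolstar means of 3.74, 3.37 and 4.22. The 465 such regions elsewhere had 1.77, 1.59 and 1.96, and single ones met up to 11, 7 and 8. For the 12, medians were 7.5, 6 and 5.5, with up to 25, 22 and 28 in chr6:12516037-12668185. For the 27, medians were 3, 3 and 4, with up to 9, 7 and 10. Lengths were compared by medians only. Mean numbers of pieces in Bolstar were thus larger on chromosome 6 than over the other chromosomes pooled, and largest there in the dense regions. The Bolstar control and both Bolstar treatments shared this pattern. Whether it belongs to the cultivar or to how the lists of each cultivar were made cannot be told apart. The regions of chromosome 6 lie close together, 5 of the 6 largest within 1 cluster, and are not independent of each other.

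A dense tract of chromosome 2 differed in another way. The region chr2:9678554-9754696 had 3578 sites in Moneyberg control and 3790, 3675 and 2207 in the overlapping region of Bolstar control, BABA and Ina. In Bolstar Ina it met 2 regions. In each Moneyberg treatment list it was joined with its neighbours to a larger region, of 7162 sites with BABA in time window 2, 7164 with Ina and with BABA in time window 3, and 7053 with MeJA, where a small second piece stood beside it. The dense regions chr2:9783979-9826974, with 2146 sites, and chr2:9780517-9783949, with 168 sites, were part of that same larger region. The latter had the highest score ratio of any dense region in all 7 lists, 42.0 to 42.6 in Moneyberg treatments and 19.1 to 20.7 in Bolstar, since a small region had been joined to a large one. Over all regions touching the cluster chr2:9601679-9927959, the sum of sites was 15671 in Moneyberg control, 16000 to 16052 in the Moneyberg treatments and 15899 to 16077 in Bolstar. These regions are counted in full, with any part beyond the ends of the cluster. Dense regions joined to a neighbour in all 4 Moneyberg treatment lists and in no Bolstar list numbered 4, 0.609% beside 0.368% of all regions.

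Sums of sites over the span of a cluster count every region touching it in full, with any part beyond its ends. By these sums, the 2 largest clusters of chromosome 11 were similar in all lists, and the 3 largest of chromosome 6 held fewer sites in Bolstar. The cluster chr6:8544984-8599872, with 5 dense regions, also held fewer in Bolstar. Its sums were 2759 to 2860 sites in the Moneyberg lists and 1603, 1368 and 1132 in Bolstar control, BABA and Ina. Some small clusters did not follow the larger ones of their chromosome. On chromosome 6, chr6:41657375-41662928, with 2 dense regions, held 288 to 290 sites in every list. On chromosome 11, chr11:54067427-54076753, also with 2, held 176 sites in Bolstar control and BABA and 249 elsewhere. In chr11:17891373-18101771 the lists held 7556 sites in Moneyberg control, 7708 to 7967 in the Moneyberg treatments, and 8109, 7822 and 7596 in Bolstar control, BABA and Ina. Between 40 and 43 of its 43 dense regions were found in each list. In chr11:18704170-18869640 the sums were 9535 sites, 9157 to 9473, and 9208 to 9309. In chr6:11000319-11342281, by contrast, Moneyberg control held 14618 sites and the Moneyberg treatments 14862 to 15030, while Bolstar control, BABA and Ina held 6992, 6762 and 9107. The largest region in that span had 2628 to 2650 sites in the Moneyberg lists and 323, 722 and 447 in the Bolstar lists. In chr6:11588079-11687168 the Moneyberg lists held 3149 to 3593 sites and the Bolstar lists 1320, 1335 and 2289. Of its 24 dense regions, 22 to 24 were found in the Moneyberg treatments, and 13, 10 and 20 in Bolstar. In chr6:12287671-13092639, where the largest regions lie, 38704 to 39104 sites stood in 28 to 31 regions in the Moneyberg lists. In Bolstar 32458, 33542 and 32973 sites stood in 89, 86 and 106 regions.

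Choosing the densest regions anew in each list gave chromosome 6 a larger share of the chosen regions in Bolstar. It held 17.3 to 18.8% of the top 2% of the 5 Moneyberg lists, and 31.4% (168 of 535), 30.02% (145 of 483) and 30.9% (186 of 601) of the top 2% of Bolstar control, BABA and Ina. These shares count regions, and the Bolstar lists held the largest dense regions of chromosome 6 in more pieces. The share of chromosome 6 among all regions of the Bolstar lists is not given here. In the Moneyberg lists 104 to 117 of the densest regions lay on chromosome 6. The medians of their sites on chromosome 6 overlapped, at 135 to 168 in the Moneyberg lists and 168.5, 176 and 153 in the Bolstar lists. The largest of the top 2%, over all chromosomes, had 8485 to 10416 sites in the Moneyberg lists and 3342 to 3790 in the Bolstar lists. Dense regions of Bolstar control were found in Moneyberg lists more often than the reverse, at 97.8 to 97.9% in the Moneyberg treatments and 97.2% in Moneyberg control. The same share over all regions of Bolstar control is not given here, so nothing particular to dense regions is read from it. The smallest listed score of Bolstar control is also the higher, at 78 sites against 65. The direction of this difference therefore cannot be assigned to the cultivars.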

How the data were processed

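Seed DNA of 8 groups was sequenced after bisulfite treatment, and the authors deposited 1 pooled list of regions per group, assigned here to its group through the sample descriptions. Trim Galore is named in the submitters' processing notes. The sources used here do not give the aligner, region caller, genome build, cytosine context or thresholds. The score that the authors deposited with each region is a whole number, read as a count of cytosine sites. The lists give no reads or methylation levels, so depth is unknown. Chromosome ends are the last listed base, and coordinates count from 1.

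Density was the score divided by the length. Regions sharing at least 1 base were matched, and for scores the match with most shared bases was used. Intervals are Wilson intervals at 95%, and a fold of 1.5 marked a different score. Named are the 10 densest regions, the 5 with most sites, the 5 largest clusters (a tie adds 1), 10 absent from most lists, extreme ratios and the limit's neighbours, from which examples were taken. Other named regions, the stretches without regions and the groups with at least 1000 sites were chosen after their values were seen. The regions and all lists were chosen with earlier results of these data known. The matching was checked on simulated lists. Regions were not assigned to genes and no sequence is shown, because no genome of the lists' build was used here. Python 3.11.15, numpy 2.4.6, pandas 2.3.3, scipy 1.17.1 and matplotlib 3.10.9 were used.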

Additional observations from a re-analysis of the deposited data

How the results depend on the processing

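Of 158 values under alternatives for 40 results, 90 stayed within the interval of the main value. A further 9 that have no interval stayed within 1.5 times of it, and 59 moved. A change of direction was not scored. No paired analysis was possible because each group is 1 pooled list in which replicates cannot be told apart, and for the same reason no replicate could be left out. The top 1% and top 5% hold 328 and 1642 regions with median lengths of 1962 and 2942 bases, and the top 5% a median of 129 sites. With at least 85 sites in every list the medians were 2818.5 bases and 166.5 sites. Chromosome 6 held 23.5% of the top 1% and 10.6% of the top 5%, chromosome 11 held 20.7% and 11.2%, and chromosome 12 held 5.49% of the top 1%. Of the top 1%, 3.35% lay in the last 5 Mb. With zones of 10 Mb, 22.4% of the 657 lay in the first, 66.7% between and 10.96% in the last. A dense neighbour within 100 kb was present for 80.8% of the top 1% and 59.7% of the top 5%, and within 1 Mb for 84.5% of the top 2%.

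With a reciprocal overlap of 50%, 80.5% were found with Moneyberg BABA in time window 2, 80.4% with Ina, 82.3% with BABA in time window 3 and 75.5% with MeJA, and 61.5%, 53.7% and 69.7% in Bolstar control, BABA and Ina. The median score ratios of Bolstar control and BABA were then 1.0. With at least 85 sites the shares found were, in the same order, 98.4%, 97.8%, 97.8%, 98.7%, 96.5%, 93.5% and 95.5%. The lower shares in Bolstar thus kept their direction, but the order of Bolstar control and Ina changed. Under both settings the shares over all regions are not given here, so nothing particular to dense regions is read from them. Dense regions chosen in Bolstar control were found at 97.9%, 97.8%, 97.8% and 97.9% in the Moneyberg treatments and at 92.9% and 96.8% in Bolstar BABA and Ina. The shares over all regions of Bolstar control are not given here.

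The share of found regions that were in the top class of their own list was, with the reciprocal overlap, 97.0%, 97.2%, 96.7% and 96.2% in the Moneyberg treatments in that order, 84.4% in Bolstar control and 88.7% with Bolstar BABA. For the top 5% it was 89.0%, 89.7%, 88.5%, 88.6% and, with Bolstar BABA, 77.3%. For the top 1% it was 89.9% with Moneyberg Ina, 90.8% with MeJA and 78.9% with Bolstar BABA.

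Alternatives chosen after seeing the data were the following. Near a stretch without regions lay 11.4% for stretches of 1000 kb, 43.5% within 500 kb, 37.5% of the top 1% and 12.5% of the top 5%. Leaving out chromosome 6 moved none of the shares found beyond its interval. Among chromosome 6 regions of at least 500 sites, mean pieces in Bolstar control, BABA and Ina were 6.88, 6.29 and 7.47. The cause of these shifts was not tested.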

Other observations

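Some of the stretches without a listed region that border dense regions had widths close to round numbers. Of the 29 stretches of at least 500 kb, 5 had a width that exceeds a multiple of 100 kb by at most 150 bases. They are 1900011, 1600009, 2400039, 600135 and 600022 bases wide, on chromosomes 1, 4, 6, 6 and 11. All 5 had a dense region on both sides, and 125 dense regions lay within 100 kb of them. Of the other 24 stretches, 2 had dense regions on both sides, on chromosomes 3 and 8, with widths of 4702840 and 502206 bases. The limit of 150 bases was set after the data were seen, and the result depends on it. A stretch of chromosome 9 from 35644733 to 36944893, 1300161 bases wide, exceeds a multiple of 100 kb by 161 bases and had 0 dense regions within 100 kb. Of the 9 stretches with a dense region within 100 kb, 4 were not near a round width. The origin of the widths was not tested.

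Dense regions of the other lists that share no base with Moneyberg control numbered 15 to 18 in the Moneyberg treatments. In Bolstar control, BABA and Ina they numbered 15, 9 and 18. The largest had 169 or 170 sites in the Moneyberg treatments and 761 in each Bolstar list. The same share over all regions of those lists is not given here, so nothing particular to dense regions is read from these counts.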
